A study of Mus musculus with 8 samples.

Results

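The clustered replication-dependent histone genes were taken as every gene of the deposited table whose symbol begins with Hist, a digit and h, which gave 64 of 23084 genes. They were compared between the genomic clusters Hist1 (51 genes), Hist2 (9), Hist3 (3) and Hist4 (1) and between the classes H1 (5), H2A (17), H2B (18), H3 (11) and H4 (13). RNA-seq had been performed on myeloid cells sorted from spleens of C57BL/6 mice, aged 6 to 8 weeks, with 8 samples in 4 groups of 2. The groups were wt CD11b+Ly6C+, wt CD11b+Ly6G+, LmnaMyeKO CD11b+Ly6C+ and LmnaMyeKO CD11b+Ly6G+ cells. In LmnaMyeKO mice, LysM-Cre, which is driven by a gene active in monocytes, macrophages and granulocytes, deletes Lmna, the gene of the nuclear envelope proteins lamin A and C. The subset of a sample was taken from its title, because the cell-marker label reads CD11b+Ly6C+ in every sample. Whether the 2 samples of a group came from different animals is not given in the sources used here. The paper does not say whether the mice used for RNA-seq bore tumors.

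Nucleosomes hold DNA around a core of H2A, H2B, H3 and H4, while H1 binds the linker DNA between them. Most genes for these proteins lie in clusters and are transcribed mainly in S phase, when newly copied DNA has to be packed. Their mRNAs usually end after a stem-loop that is bound by SLBP, in place of a poly(A) tail. Replacement histones such as H3.3 come from single genes outside the clusters, whose mRNAs are polyadenylated and made throughout the cell cycle.

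The stem-loops of the highest single-transcript member of each class that holds one, of Hist3h2a and of Hist1h4b, which has a rarer form, are shown because this element marks the class of mRNA to which the genes belong. Capitals mark the stem-loop, a stem of 6 bases, a loop of 4 bases and the complement of the stem, and lower case the bases on each side, all on the coding strand (GRCm38, the same build as mm10).
Hist1h1c (H1), chr13:23739512-23739527, plus strand: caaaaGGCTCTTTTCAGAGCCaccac
Hist2h2aa1 (H2A), chr3:96246032-96246047, plus strand: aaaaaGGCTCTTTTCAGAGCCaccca
Hist3h2a (H2A), chr11:58955172-58955187, plus strand: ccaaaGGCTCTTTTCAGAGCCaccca
Hist1h2bg (H2B), chr13:23571843-23571858, plus strand: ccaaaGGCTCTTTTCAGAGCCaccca
Hist2h3c2 (H3), chr3:96238485-96238500, minus strand: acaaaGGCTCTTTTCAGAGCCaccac
Hist1h4i (H4), chr13:22040966-22040981, minus strand: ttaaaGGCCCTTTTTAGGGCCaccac
Hist1h4b (H4), chr13:23757366-23757381, plus strand: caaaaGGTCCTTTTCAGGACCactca
An exact stem-loop was found after the stop codon of 44 of the 64 members, 3 of H1, 11 of H2A, 10 of H2B, 8 of H3 and 12 of H4. The form of Hist1h1c was the commonest and was held by 25 members, none of them H4. The 12 H4 members with a stem-loop used 4 other forms, and the element of Hist1h4i had 13 of its 16 bases in common with the commonest form. The forms of Hist1h4i and of Hist1h4b were held by 2 members each, and the usual H4 form, which is not printed here, by 7. The stem-loop began at most 58 bases after the stop codon.

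The table gives 1 value per gene, the authors' mean of normalized counts (read counts divided by a size factor that corrects for library depth), and this mean is pooled over samples. The smallest means were sums of whole counts in steps of 8 different sizes, so that the mean pools 8 libraries, as many as the series has samples, and both genotypes and both subsets contribute to it. The effect of Lmna loss on these genes was therefore not estimated here. No spread between replicates can be given for any member either, and where 2 levels are close, their order is not established. The depth of each sample is unknown. Lmna itself had a pooled mean of 79.5 normalized counts, which does not check the knockout. Among markers of the sorted cells, 13 of 13 granulocyte genes and 9 of 9 monocyte genes were above the median gene, and so were 7 of 7 B and plasma cell genes, 7 of 7 T and NK cell genes, 9 of 9 macrophage and dendritic cell genes and 9 of 9 erythroid and platelet genes. Median levels of these 6 lists, as mean normalized counts per kb of exon, were 34070.2, 955, 3166, 130.5, 2357 and 132.5. The part of those other cells in the histone levels was not tested, and fewer cells of a type and less RNA per cell cannot be told apart in such bulk samples.

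Most clustered histone genes were low, and a few carried nearly all of the signal. The pooled mean was below 10 normalized counts in 44 of the 64 members and below 5 in 38, while 10 members lay above 100 and 3 above 1000. To compare genes, each mean was divided by the gene's exonic length. The median level over the members was 5.70 mean normalized counts per kb, against 18.7 over all genes with a length and 60.1 over protein-coding genes. Of the 64 members, 19 lay above the median gene and 8 above the median protein-coding gene. The highest 3 members, Hist2h2aa1, Hist1h1c and Hist1h2bc, held 67.7% of the summed level per kb, and the highest 10 held 93.6%. All 64 members together made up 0.0277% of the normalized counts of the table.

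**Figure D1:**
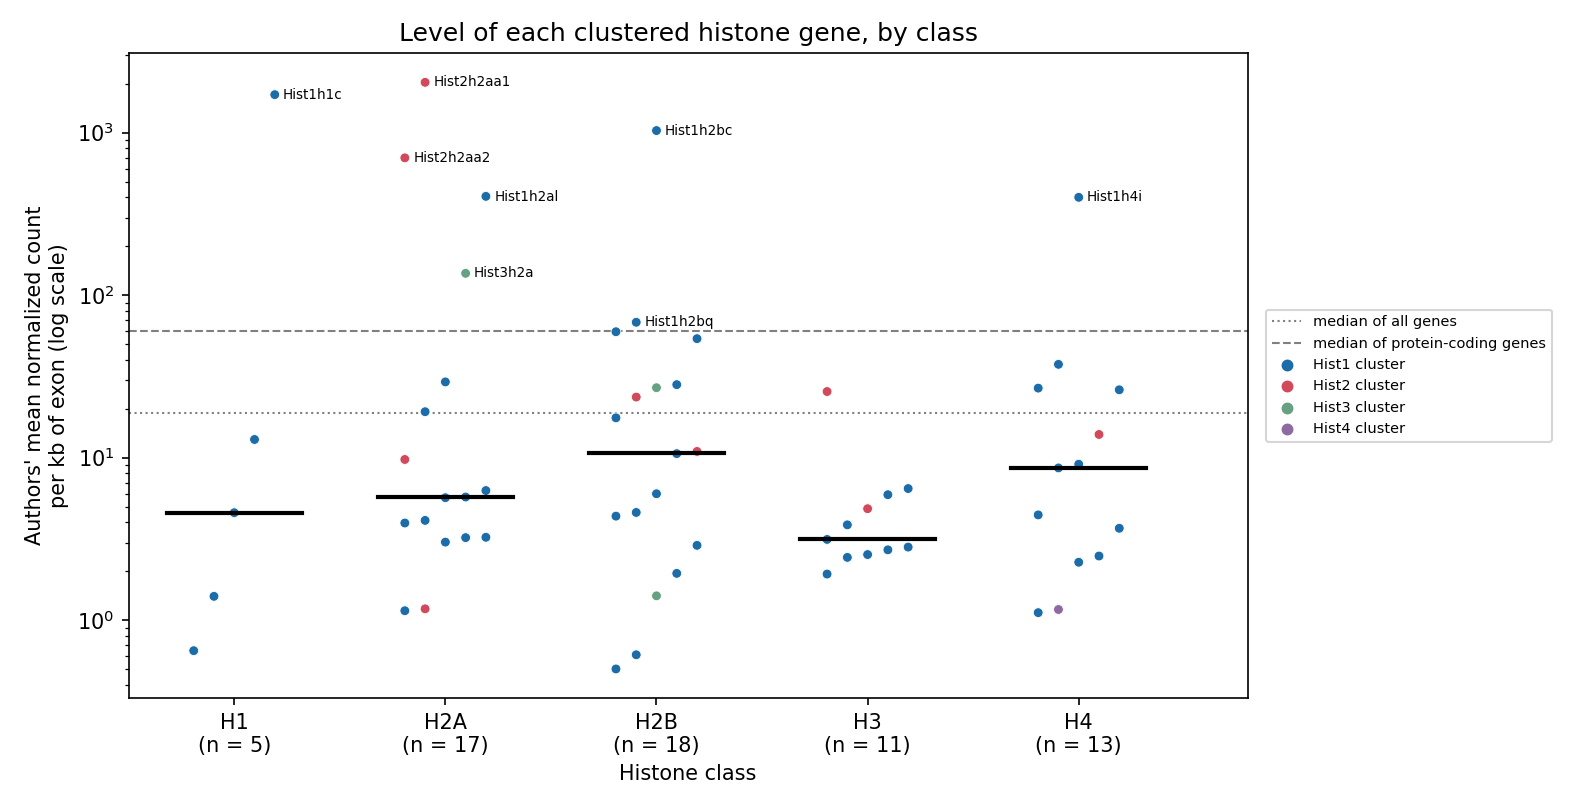
Authors' mean normalized count per kb of exon (log axis) for each of the 64 clustered histone genes, by class, with 1 point per gene coloured by cluster, black bars at the class medians and grey lines at the medians of all genes and of protein-coding genes. Each class median lies below the median of all genes (18.7), and the named genes are those above the median of protein-coding genes.

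In the linker histone class H1, almost the whole signal came from 1 gene. Hist1h1c, which encodes the linker histone H1.2, lies on the plus strand of chromosome 13 from 23738808 to 23740367 in a single exon. Its pooled mean was 2671 normalized counts, or 1712 per kb, higher than in 97.2% of all genes. The other 4 H1 members were far lower on the same per-kb scale. Hist1h1e, which encodes H1.4, had 12.9 normalized counts per kb, Hist1h1b (H1.5) 4.58, Hist1h1a (H1.1) 1.40 and Hist1h1d (H1.3) 0.649. Part of the annotated length of Hist1h1e also belongs to Hist1h2be on the same strand, so its value is uncertain. For Hist1h1d an annotated end of 4884 bases after the stem-loop enters the length, and its pooled mean was 4.82 normalized counts. Only 8.54% of the 50-base words of the Hist1h1c transcript occur in another gene's transcript, so it has little sequence that counting could divide among copies.

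H2A held the largest class share, 47.8% of the summed level per kb, and 4 of its 17 members lay above 100 normalized counts. That rank rests on 1 gene and on the length used: without Hist2h2aa1 the H2A share was 26.6% against 34.5% for H1, and with no length correction it was 29.2% against 38.6%. Hist2h2aa1 (chr3:96245497-96246082, plus strand) had a pooled mean of 1195 normalized counts and the highest level of all members per kb of exon, 2039. Per kb of coding sequence it had 3063, against 4200 for Hist1h1c and 3148 for Hist1h2bc. Hist2h2aa2 (chr3:96239749-96240276, minus strand) is the near copy of Hist2h2aa1, with an identical coding sequence. It had a mean of 369 normalized counts and a level of 699 per kb. Of the 50-base words of Hist2h2aa2, 100% also occur in another transcript, and of those of Hist2h2aa1, 89.4%, so the division of reads between both copies is uncertain. Their sum was 1564 normalized counts. The transcript that shares most words with either copy is that of Gm20634, an RNA gene that also overlaps Hist2h2aa1 on the same strand, so the sum is uncertain as well. Hist1h2al followed with 405 normalized counts per kb, but it is annotated as a processed pseudogene, lies 27.4 Mb from the rest of Hist1, and shares 67.6% of its words with other transcripts. Hist3h2a had 136 per kb and overlaps Trim17 on the same strand, which makes its value uncertain as well. Hist1h2ap reached 29.2 per kb and Hist1h2ao, which has an identical coding sequence, 5.73, and since 93.1% and 93.5% of their words are shared, the split between them is uncertain. The lowest member was Hist1h2af, at 1.143 per kb. Hist2h2ac had 9.74 and Hist2h2ab 1.17 per kb, so the other H2A members of the Hist2 cluster were low.

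In H2B the level of Hist1h2bc stood apart. H2B held 19.1% of the summed level per kb of exon, and 31.3% per kb of coding sequence. Hist1h2bc (chr13:23684199-23692908, plus strand) has 2 annotated exons and a pooled mean of 1190.0 normalized counts, or 1029 per kb. Of its words, 30.1% occur in other transcripts, that of Hist1h2bg above all, so part of its value is uncertain. Hist1h2bq and Hist1h2br, which have an identical coding sequence, had 68.1 and 59.5 per kb, and since 97.3% and 88.7% of their words are shared, the split between them is uncertain. Hist1h2be had 54.0 per kb with a pooled mean of 240.0 normalized counts, and its annotated transcripts overlap Hist1h1e on the same strand, so its value is uncertain too. Hist1h2bg had 28.1 per kb. Outside Hist1, Hist3h2ba had 26.9, Hist2h2be 23.6, Hist2h2bb 10.9 and the pseudogene Hist3h2bb-ps 1.41 per kb. The lowest of all 64 members was Hist1h2bl, at 0.501 per kb and a mean of 0.191 normalized counts.

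The core histones H3 and H4 differed in the same pooled mean. H3 held 0.881% of the summed level per kb, and none of its 11 members lay above 100 normalized counts. Its highest member was Hist2h3c2, with 25.5 per kb, followed by Hist1h3c (6.46), Hist1h3a (5.92), Hist2h3b (4.85) and Hist1h3d (3.86), down to Hist1h3g (1.92). Of the words of Hist2h3c2 and Hist2h3b, 63.5% and 79.7% occur in other transcripts, that of Gm20634 above all, so both values are uncertain. H4 held 7.61%, of which 5.67 percentage points came from Hist1h4i (chr13:22040636-22041362, minus strand), with a pooled mean of 290.7 normalized counts and a level of 399.8 per kb. Next came Hist1h4n (37.5), Hist1h4m (26.8), Hist1h4h (26.2) and Hist2h4 (13.9), and the lowest was Hist1h4a (1.11 per kb). Hist1h4m and Hist1h4n have an identical coding sequence and share most of their words, so their separate values are uncertain. The translated coding sequences of the 13 H4 members gave 1 protein, those of the 11 H3 members 2, of 16 H2A members 7, of 17 H2B members 10 and of the 5 H1 members 5. All 13 H4 members thus encode the same protein, and Hist1h4i was the only one of them above 100 normalized counts. Of the words of Hist1h4i, 28.9% occur in other transcripts, that of Hist1h4n above all, so part of its value is uncertain.

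By cluster, Hist1 held 57.6% of the summed level per kb, Hist2 40.1%, Hist3 2.33% and Hist4 0.0165%. Without Hist2h2aa1 the share of Hist2 was 15.7%, and without the members lacking a stem-loop it was 51.6% against 45.4% for Hist1. Median levels were 4.58 normalized counts per kb over Hist1, 13.9 over Hist2 and 26.9 over Hist3, and the only Hist4 member, Hist4h4, had 1.16. Per kb of coding sequence these values were 7.65, 63.8, 396.6 and 10.8, which puts Hist4h4 above the Hist1 median. The pseudogenes Hist1h2al and Hist3h2bb-ps have no coding length and are left out of them. The Hist3 value is thus the midpoint of Hist3h2a (749.5) and Hist3h2ba (43.8). Hist1 without Hist1h2al falls into a stretch of 22 members over 327.9 kb and a stretch of 28 members over 233.4 kb, separated by 1.49 Mb. The first stretch had a median of 5.16 per kb and 3 members above 100 normalized counts, and the second a median of 3.99 and also 3 members. High members lay beside low ones: Hist1h2bc, at 1029 per kb, is the neighbour of Hist1h2ac, at 3.22 per kb. The length of Hist1h2ac includes 2010 bases after its stem-loop, and per kb of coding sequence the 2 genes had 3148 and 20.5.

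**Figure D2:**
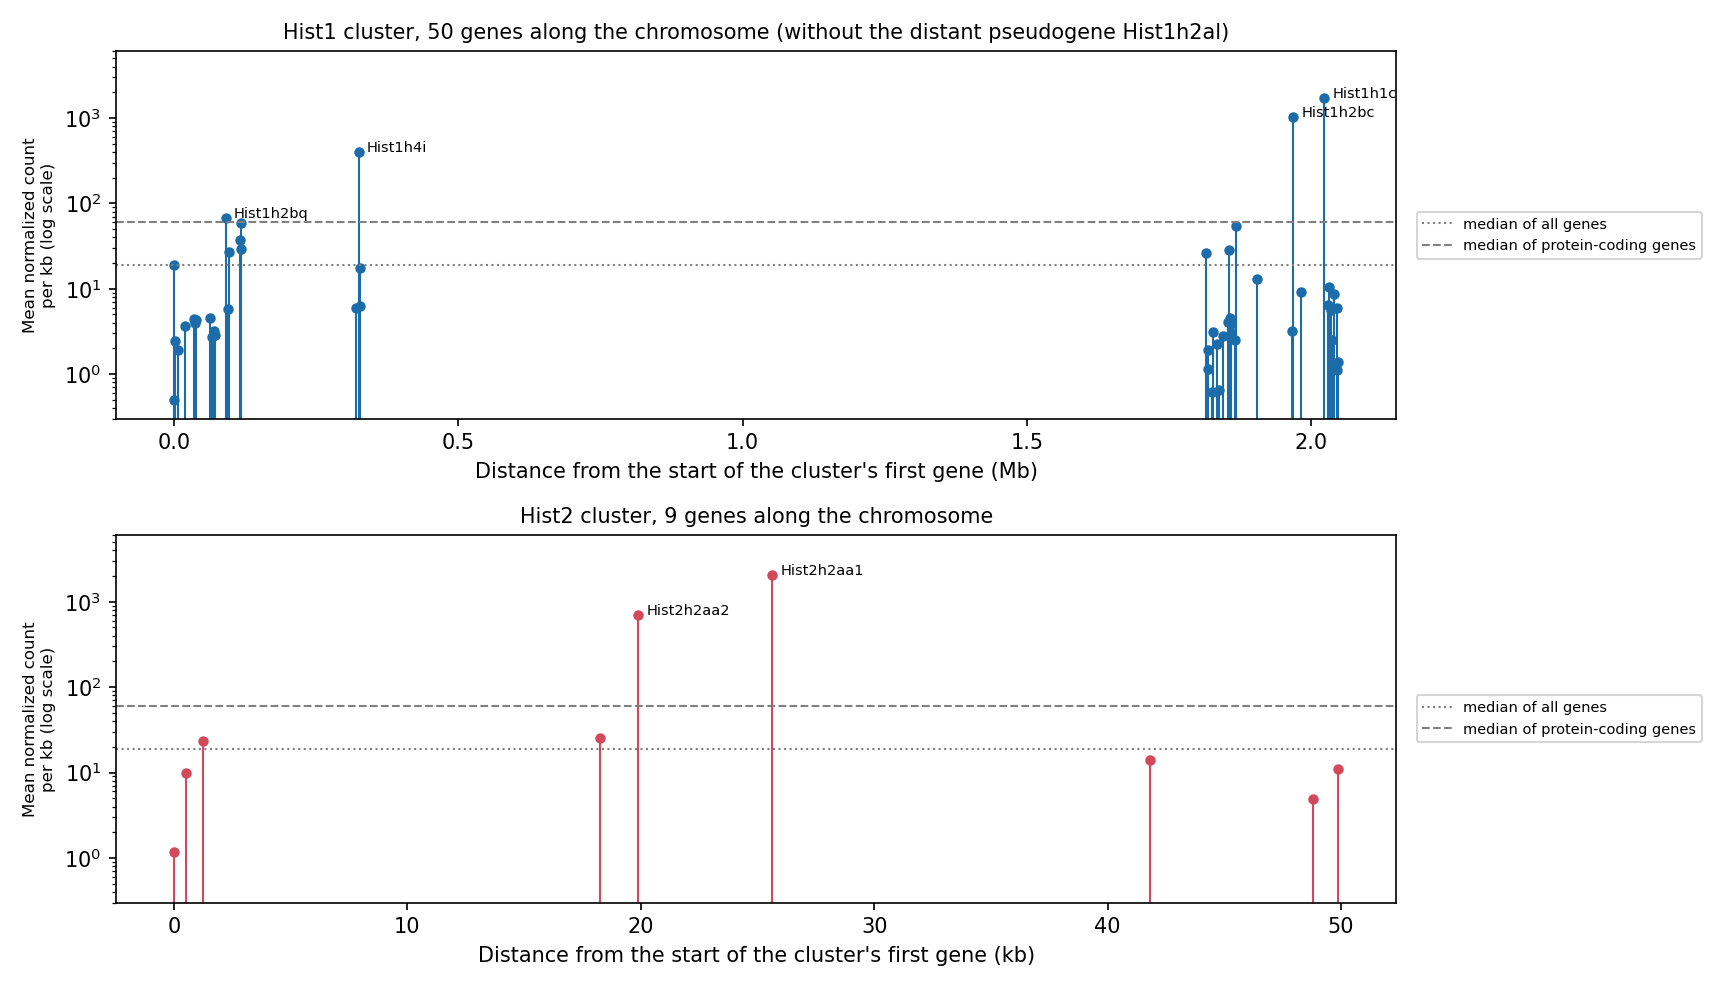
Authors' mean normalized count per kb (log axis) along the Hist1 and Hist2 clusters, against the distance from the start of the cluster's first gene, with 1 line and point per gene and grey lines at the medians of all genes and of protein-coding genes. Hist1h1c and Hist1h2bc stand in the second stretch of Hist1 and Hist1h4i in the first, far above most of the members around them, and Hist2h2aa1 and Hist2h2aa2 stand above the other members of Hist2.

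High and low members were found both with short and with long annotated 3′ ends. A stem-loop within 100 bases of the annotated end was found in 23 members, with a median level of 6.27 normalized counts per kb and a range of 1.92 (Hist1h3g) to 2039 (Hist2h2aa1). In 21 members the annotation runs further past the stem-loop, and these had a median of 4.11 and a range of 0.613 (Hist1h2bh) to 1712 (Hist1h1c). Hist1h2bh was matched to its annotation by symbol only, and had 2.72 per kb of coding sequence. Lengths and ends come from a later annotation release than the one used for the counts, which makes such low values uncertain. Long ends were found at Hist1h1c (840 bases after the stem-loop), Hist1h4i (330), Hist3h2a (1643) and Hist1h2be (1861), which lay above the median gene, but also at Hist1h2ac (2010), Hist4h4 (2445) and Hist1h1d (4884), whose levels were 3.22, 1.16 and 0.649 per kb. In 14 members no stem-loop was found and the annotation ends under 74 bases after the stop codon, too early to take in the farthest stem-loop seen in the other members, and their levels ran from 0.501 to 19.2, the highest being Hist1h2ai. Besides Hist1h2ai and Hist1h2bl these were Hist1h1a, Hist1h1b, Hist1h2af, Hist1h2ak, Hist1h2an, Hist1h2bn, Hist1h3h, Hist1h3i, Hist1h4k, Hist2h2ab, Hist2h2bb and Hist2h3b. A further 4 members, all H2B, have annotated ends of 742 to 2192 bases after the stop codon with no exact stem-loop in them. These were Hist1h2bc, Hist1h2bq, Hist1h2br and Hist2h2be, whose levels of 23.6 to 1029 per kb were all above the median gene. Hist1h2bq and Hist1h2br each also have an annotated transcript that ends at the stop codon. The long ends of Hist1h2bc, Hist1h2bq and Hist1h2br belong to spliced transcripts. Only annotated transcripts were searched, so a stem-loop in the genome outside them would have been missed. Whether the reads of any member came from transcripts that end at the stem-loop or beyond it was not tested, and whether the libraries were selected for poly(A) is not given in the sources used here.

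**Figure D3:**
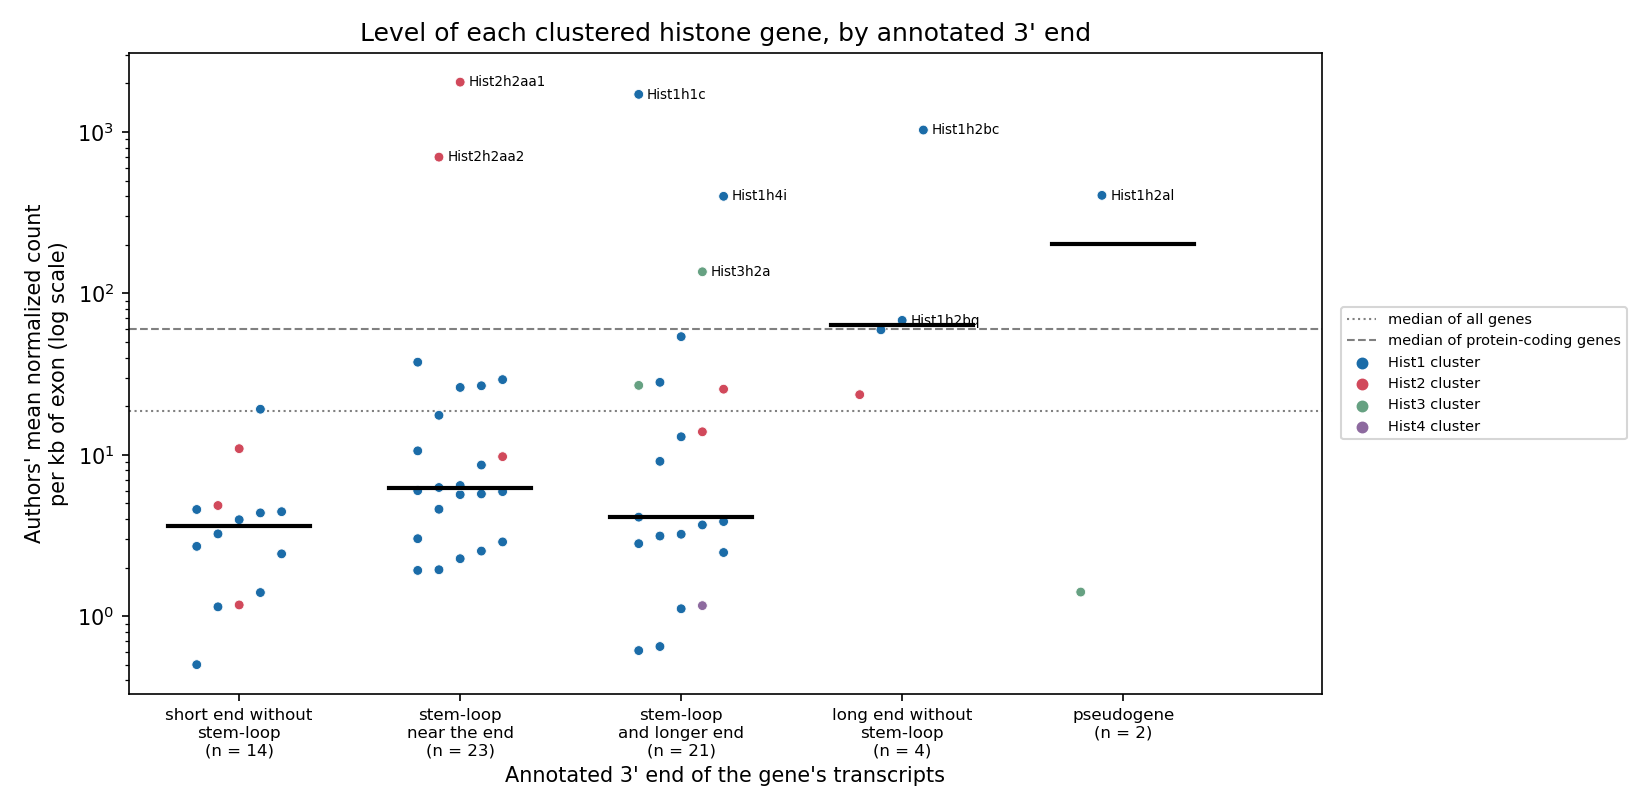
Authors' mean normalized count per kb (log axis) by annotated 3′ end of each gene's transcripts, with 1 point per gene coloured by cluster, black bars at group medians and grey lines at the medians of all genes and of protein-coding genes. The 4 members with a long annotated end and no stem-loop found in it all lie above the median gene, while the members with a stem-loop span more than 3 decades, whether their annotated end is near or far.

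Promoter sequences of RefSeq (GRCm38.p6, 250 bases before to 50 after the start site) were matched to 57 members. The CCAAT box, searched as CCAAT on both strands, was found in 48 of them (84.2%), against 41.1% of all genes with a promoter. A gene counted if any of its promoters held a match. It was present in 5 of 5 H1, 16 of 16 H2A, 15 of 15 H2B and 9 of 9 H3 promoters, but in 3 of 12 H4 promoters. The TATA box, searched as TATAAA on the coding strand, was found in 47.4% of the members against 9.77% of all genes with a promoter. A match at any position counted, and the first bases of those in H4 ran from -250 to 41 relative to the start site. The octamer ATTTGCAT, on both strands, was found in 6 of 15 H2B and 5 of 16 H2A promoters, against 1.97% of all genes with a promoter. None of the other 3 classes held it. Its first base lay at -90 to -25 in H2B and at -200 to -119 in H2A. Some H2A and H2B genes lie side by side on opposite strands, so their windows overlap and the same site can count for both. The octamers of Hist1h2ae (-128) and Hist1h2bg (-59) are the same bases, and some CCAAT matches are shared in this way too. The AC box AAACACA, on both strands, was found in 4 of 5 H1, 1 of 16 H2A and 1 of 15 H2B promoters, and in none of H3 or H4. Over all classes it was held by 6 of the 57 members, a share not far above the 8.22% of all genes with a promoter. A match is a description of the letters only.

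Genes that make, package or process histones were listed beside the members. Of 13 replacement histone genes in the table, 9 lay above the median gene, with a median of 359.8 normalized counts per kb. H3f3a and H3f3b, which both encode H3.3, had 7116 and 4421 per kb, and H2afz, which encodes H2A.Z, had 3097. Each of these lay above the highest clustered member. Of 19 genes for histone mRNA processing, 18 were above the median gene, and their median was 177.8 per kb. The highest were Lsm10 (576.7), a component of the U7 snRNP, Upf1 (517), a helicase needed for decay of histone mRNA, and Srrt (445), a partner of the cap-binding complex, while Slbp had 207. All 20 histone chaperones in the table were above the median gene, led by Hjurp (862.6), Nap1l1 (626) and Nap1l4 (577). All 21 S phase genes were as well, with a median of 205 per kb and with Pcna (795), Mki67 (510.2) and Rrm2 (309.9) the highest. Of 7 RNAs that carry no poly(A) tail, 5 lay above the median gene, led by the RNA 7SL copies Rn7s1 (298) and Rn7s2 (196) and by Rn7sk (158), and their median was 34.7 per kb. That rank depends on the length: their median pooled mean was 9.42 normalized counts, against 47.2 over all genes with a length. Rmrp (9.42) and Rpph1 (9.05) lay below the median gene by counts. The clustered members, with a median of 5.70 per kb, had the lowest median of these 6 lists.

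**Figure D4:**
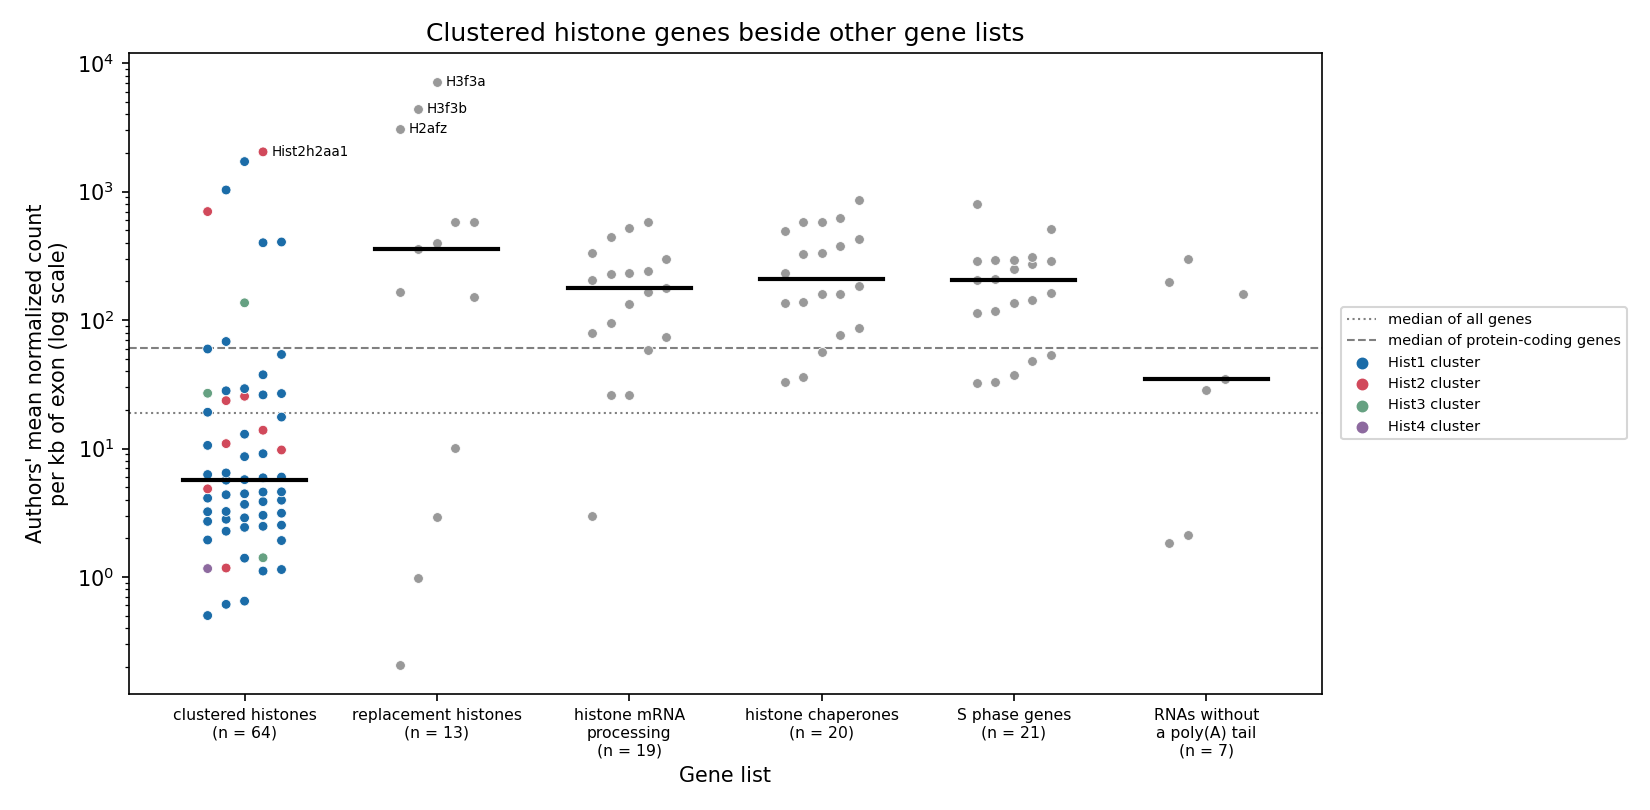
Authors' mean normalized count per kb of exon (log axis) for the clustered histone genes and 5 other gene lists, with 1 point per gene, black bars at list medians, grey lines at the medians of all genes and of protein-coding genes, and clustered members coloured by cluster. H3f3a, H3f3b and H2afz lie above Hist2h2aa1, the highest clustered member, and most clustered members lie below the median gene.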

How the data were processed

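RNA-sequencing of 8 samples was used through 1 deposited table. The authors trimmed reads with Cutadapt 1.14, mapped them to mm10 with STAR 2.5.2b, estimated gene counts with RSEM 1.3.0 on GENCODE M12, and ran DESeq2 1.20.0. The signal in the deposited table is the authors' mean of counts divided by size factors, and the depth per sample is unknown. The table's other columns hold the authors' own contrast between the genotypes (log2 fold change, its error, statistic, p-values) and were not used. No column belongs to a single sample, so the planned count test was not run.

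Genes were matched to GENCODE M21, on the same build, by ID for 62 members and by symbol for 2. The counts were made on M12 while lengths and ends come from M21, and gene models that differ between these releases were not looked for. Exonic length is the union of exons. A stem-loop was a stem of 6 bases beginning GG with an exact complement around a loop of 4 bases, with T as the last stem base and the first loop base. Shared sequence was counted as 50-base words. Promoters came from RefSeq. Steps were fitted to means under 3 times the smallest, and the remaining 1460 genes with a mean under 1 were all whole sums within 1e-09. The recovery of libraries was tested on simulated data.

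The members and lists were chosen with earlier results of these data known. The exact stem-loop, the limits of 100 bases and of 74 bases that sort annotated ends, the word length, the octamer and AC box, and the recovery of reads were chosen after the data were seen. Named were, per class, the 5 highest members per kb and the lowest, all members outside Hist1, those without a stem-loop, pairs with identical coding sequence, and the 3 highest genes of each list other than the cell markers. Outside this rule, Hist1h2ac, Hist1h2ae, Hist1h2bh, Hist1h3f, Hist1h4b and Slbp were named after their values were seen. Of 70 annotated symbols of the pattern, 6 were not analysed here. Python 3.11.15, pandas and numpy were used.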

Additional observations from a re-analysis of the deposited data

How the results depend on the processing

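No paired analysis was possible because every gene has 1 pooled mean and no value of a single sample. Leaving out replicates was not run for the same reason, and no error from replicates stands behind a level. Shares moved with the length used. For H1, H2A, H2B, H3 and H4, the class shares of 24.5%, 47.8%, 19.1%, 0.881% and 7.61% became 27.9%, 32.1%, 31.3%, 0.826% and 7.96% per kb of coding sequence, and 38.6%, 29.2%, 26.0%, 0.735% and 5.36% without a length. Without Hist2h2aa1, the highest member per kb of exon, they were 34.5%, 26.6%, 26.9%, 1.24% and 10.7%. Without the members lacking a stem-loop they were 31.9%, 54.4%, 2.83%, 0.965% and 9.85%. H3 held the smallest share in each case, but the order of H1, H2A and H2B changed, and without the members lacking a stem-loop H2B fell below H4. For Hist1, Hist2, Hist3 and Hist4, the cluster shares became 66.3%, 28.5%, 5.20% and 0.0706% with coding length, 71.4%, 24.1%, 4.42% and 0.0476% without a length, 81.0%, 15.7%, 3.28% and 0.0232% without Hist2h2aa1, and 45.4%, 51.6%, 3.02% and 0.0215% without members lacking a stem-loop. With coding length, medians moved by over 1.5 times to 7.27 (H1), 5.80 (H3), 7.65 (Hist1), 63.8 (Hist2), 396.6 (Hist3) and 10.8 (Hist4) normalized counts per kb. Leaving out the 1 member at or under 3 reads moved no median by that much. Pseudogenes have no coding length and dropped out of those values.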

Other observations

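Reads per library could be recovered for the members with the lowest means, because each mean is a sum of whole counts (rounded RSEM estimates) divided by 8 size factors. The libraries are called A to H in falling order of size factor and could not be assigned to a genotype or subset. Their size factors ran from 0.796 (H) to 1.91 (A), with a value for B of 1.05. Of 38 members with a mean under 5, 34 had exactly 1 whole-count solution. These 34 held 530 reads in all, 2 to 33 per member with a median of 14, and 1 of them, Hist1h3f, had reads in all 8 libraries.

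Divided by size factor, the reads of these low members were spread unevenly over the libraries. Libraries E and C held 20.5% and 18.4% of them, and the other 6 between 8.73% (H) and 11.7% (F). All 3416 genes with a mean under 1 gave 12.3% for E, 11.8% for C and 12.7% for H. That limit is lower than the 5 used for the members, and shares over all genes at the members' limit were not taken. Before size factors, E held 102 of the 530 reads, or 19.2% (95% Wilson interval 16.1% to 22.8%), and these intervals cover counting error only. An earlier and stricter limit on the mean, 2.82, kept 25 members with 302 reads and gave 19.6% for E, 20.7% for C and 3.94% for H, so that the share of H rests on the limit. Both limits were set after the data were seen. For Hist4h4 the 28 reads were 5, 4, 7, 4, 4, 0, 1 and 3 in libraries A to H. For Hist1h3f, the 33 reads were 6, 5, 3, 3, 10, 3, 1 and 2, and for Hist1h2bl 2 reads lay 1 each in A and C.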
